A study of Mus musculus with 10 samples.

Results

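In the lining of cerebral blood vessels, 10 genes were followed in the brains of Snx14-knockout mice, with attention to Mfsd2a, the carrier that brings docosahexaenoic acid (DHA) into the brain. They were taken as a list of names, drawn up with earlier results of these data known, out of the 55536 genes in the deposited tables. They comprise 5 transporters of the blood-brain barrier (Mfsd2a, Slc2a1, Abcb1a, Slco1a4 and Slco1c1) and 5 genes grouped as general endothelial (Cldn5, Pecam1, Cdh5, Flt1 and Tek). Of this second group Cldn5 is also a tight junction gene of the barrier. All 10 passed the filter on low counts in both tissues.

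Cerebellum and cerebral cortex of 5 mice aged 1 year had been profiled by RNA-seq, and each mouse gave 1 library per tissue, 10 in all. In each tissue the controls were 2 heterozygous mice (Het, controls 1 and 2) and 1 wild-type mouse (WT, control 3), and these were compared with 2 homozygous Snx14-KO mice (KO 1 and KO 2). Snx14 encodes an endoplasmic reticulum protein with a role in lipid metabolism, and the study set the cerebellum, which degenerates in these mice, against the cortex, which does not. The KO is a frameshift deletion made by genome editing in C57BL/6J mice and carried in every cell, so that vessel cells carry it as neurons do. Pieces of whole tissue were used, in which endothelial cells are a small part, and a fall in the number of cells of a type and a fall in RNA per cell cannot be told apart.

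Endothelial cells of brain capillaries form the blood-brain barrier by sealing their contacts with tight junctions, by carrying few transport vesicles and by moving nutrients through dedicated carriers. Mfsd2a takes up lysophosphatidylcholine that carries DHA, a fatty acid the brain makes little of, and the same protein keeps vesicle transport through the cell low. Pecam1, Cdh5 and Tek, in contrast, are made by the endothelium of most organs.

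The stretches upstream of 3 genes are shown because Mfsd2a was the gene that changed and Slc2a1 the transporter nearest to it in its pattern. Cldn5, a tight junction gene grouped here as general endothelial, is shown as a gene that is not a transporter. Each holds the 250 bases before the RefSeq start site in GRCm38.p6, read 5′ to 3′ on the strand of the gene. Capitals mark the letters of a CCAAT box (CCAAT or, on the other strand, ATTGG) and of a GC box (GGGCGG or CCGCCC). The Mfsd2a stretch is on the minus strand at chr4:122961189-122961438, Slc2a1 on the plus strand at chr4:119108495-119108744 and Cldn5 on the plus strand at chr16:18776597-18776846.
Mfsd2a: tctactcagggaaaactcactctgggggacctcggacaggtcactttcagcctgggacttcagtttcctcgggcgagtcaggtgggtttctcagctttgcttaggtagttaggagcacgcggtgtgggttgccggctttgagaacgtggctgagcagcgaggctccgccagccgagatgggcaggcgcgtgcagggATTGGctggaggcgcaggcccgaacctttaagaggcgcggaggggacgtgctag
Slc2a1: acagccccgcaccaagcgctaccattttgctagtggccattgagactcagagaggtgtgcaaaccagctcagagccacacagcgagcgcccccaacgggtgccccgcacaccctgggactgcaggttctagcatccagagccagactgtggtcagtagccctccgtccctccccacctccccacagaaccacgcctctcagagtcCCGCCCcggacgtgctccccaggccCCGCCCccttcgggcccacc
Cldn5: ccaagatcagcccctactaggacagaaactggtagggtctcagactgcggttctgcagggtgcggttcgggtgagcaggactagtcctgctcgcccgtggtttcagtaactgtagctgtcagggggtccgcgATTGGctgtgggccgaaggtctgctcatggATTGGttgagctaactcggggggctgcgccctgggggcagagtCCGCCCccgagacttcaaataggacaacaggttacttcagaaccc
The RefSeq start was the gene start of the deposited tables for Mfsd2a and Cldn5 and lay 34 bases from it for Slc2a1. The Mfsd2a stretch held 1 CCAAT box, from 54 to 50 bases before the start, and no GC box. Slc2a1 held 2 GC boxes and Cldn5 held 2 CCAAT boxes and 1 GC box. RefSeq gave such a window for 8 of the 10 genes, of which 4 held a CCAAT box and 3 a GC box, while 33.8% and 32.7% of 32851 mouse promoter windows did. The window of Abcb1a lies 92986 bases from the gene start of the tables. The glucocorticoid receptor half-site (AGAACA or TGTTCT) was in the window of Tek alone, and in 16.1% of all windows. The E-box (CACGTG), the TCF/LEF motif (ATCAAAG or CTTTGAT) and the ETS motif (CCGGAAG or CTTCCGG) were in none of the 8, and in 6.02%, 3.21% and 6.91% of all windows. The TATA box (TATAAA or TTTATA) was in that of Flt1, and in 12.4% of all windows.

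Library totals lay between 16088310 and 22975355 counts. Levels are given as CPM, the counts scaled to library size, on a single scale for the 10 libraries. For this the library sizes were first multiplied by TMM scaling factors of 0.950 to 1.05. Snx14 served as the check of the labels. It stood at 42.8, 39.9 and 73.2 CPM in the control cerebella and at 15.5 and 17.4 CPM in the KO cerebella. In cortex it stood at 34.3, 34.9 and 50.8 CPM in controls and at 14.8 and 16.1 CPM in KO mice, so that every KO library was below every control. A gene was called changed at an adjusted p under 0.05 with a log2 change over 0.5 in either direction. Some libraries stood apart. Control 2 differed from the other controls in both tissues, with a chi-square per degree of freedom over genes of 12.8 and 14.2 in cerebellum and 27.0 and 28.5 in cortex, against 4.12 and 4.76 between controls 1 and 3. Between KO 1 and KO 2 the same measure was 12.1 in cerebellum and 5.16 in cortex. The KO cerebella thus differed from each other nearly as much as control 2 did from the other control cerebella. Choroid plexus genes were nearly absent from 1 cerebellum library (KO 1, summed CPM 69.2, against 1213 to 3483 in the other 4). In cortex, control 1 was higher in endothelial genes than the other controls.

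In KO cerebella Mfsd2a rose, and no other gene of the 10 passed the test. Mfsd2a (ENSMUSG00000028655.11, chromosome 4, 122946850 to 122961188, minus strand) was at 7.56, 4.99 and 7.17 CPM in controls 1 to 3. It was at 17.2 CPM in KO 1 and at 14.1 CPM in KO 2. Both KO libraries thus lay above all 3 controls. Controls averaged 6.57 ± 1.38 CPM (SD, n = 3) and KO mice 15.7 ± 2.21 CPM (SD, n = 2). The rise was 2.37-fold, or 1.24 on the log2 scale (SE 0.192, 95% interval 0.80 to 1.68), with an adjusted p of 0.0142. The p sets the change against the spread between these few mice, which edgeR moderates by the spread of all tested genes. The background to this 1 call among 10 genes is 1.55% of 19447 tested genes called in either direction and 0.514% called higher. With 1 library left out at a time the change remained between 1.08 and 1.38, but the call was lost without KO 1 (1.10, adjusted p 0.0869), without control 1 (1.36, adjusted p 0.0559) and without control 3 (1.31, adjusted p 0.0607).

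**Figure D1:**
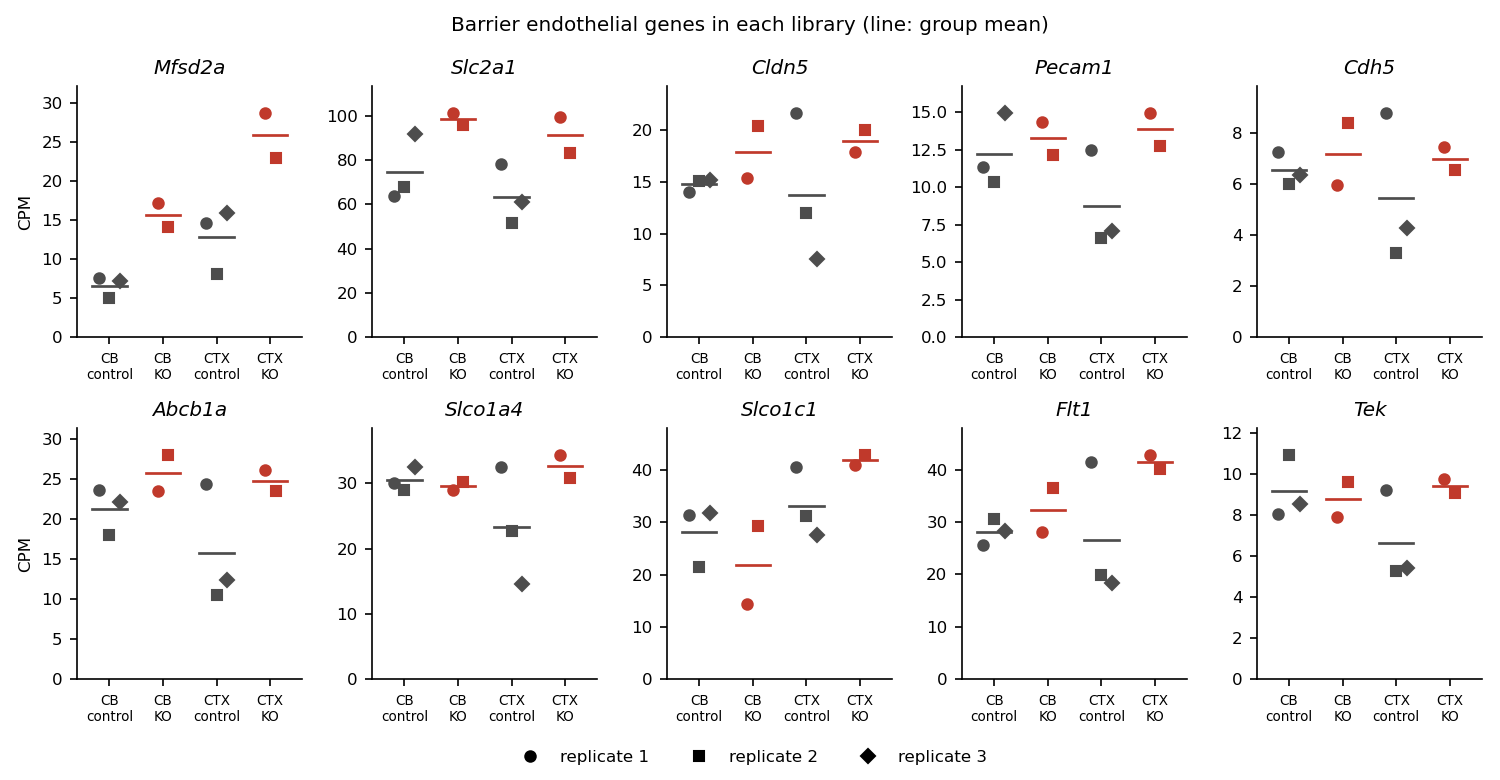
CPM (linear axis from 0) of the 10 genes in the 10 libraries, in cerebellum (CB) and cortex (CTX); symbols are replicates, lines are group means, grey is control and red is KO. Mfsd2a lay at 14.1 and 17.2 CPM in KO cerebella above 3 controls at 4.99 to 7.56 CPM, and in cortex the control 1 library (grey circle) sits beside the KO libraries for most of the other genes.

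Among the other transporters, Slc2a1 had the smallest p. Slc2a1, the glucose transporter of the barrier (ENSMUSG00000028645.11, chromosome 4, 119108711 to 119137983, plus strand), was at 63.7, 68.0 and 91.8 CPM in control cerebella and at 101 and 96.0 CPM in KO cerebella. The groups did not overlap, but WT control 3 lay close to the KO libraries. The log2 change was 0.40 (SE 0.139, 95% interval 0.08 to 0.72), which did not pass (adjusted p 0.250). Without control 3, which left only Het controls, Slc2a1 passed at 0.58 (adjusted p 0.0293). With the mouse number taken as a replicate block, although the number does not pair control and KO mice, it also passed at 0.58 (adjusted p 0.0463).

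Abcb1a, the drug efflux pump P-glycoprotein (ENSMUSG00000040584.8, chromosome 5, 8660077 to 8748575, plus strand), was at 23.7, 18 and 22.2 CPM in controls and at 23.5 and 28.1 CPM in KO cerebella, and the groups overlapped. Its log2 change was 0.27 (SE 0.138, adjusted p 0.470). In its neighbouring paralogue Abcb1b the change was 0.04 (SE 0.244, adjusted p 0.971), with the reservation that pairs mapping to several places were not counted. Slco1a4, a carrier of organic anions and steroid conjugates (ENSMUSG00000030237.14, chromosome 6, 141805440 to 141856199, minus strand), had the log2 change nearest to 0 of the 10. It stood at 30.1, 28.9 and 32.5 CPM in controls and at 29.0 and 30.2 CPM in KO cerebella, a log2 change of -0.05 (95% interval -0.26 to 0.16, adjusted p 0.889).

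Slco1c1, a thyroid hormone carrier (ENSMUSG00000030235.17, chromosome 6, 141524368 to 141570177, plus strand), gave a wide spread in cerebellum. It stood at 31.4, 21.5 and 31.8 CPM in controls, at 14.4 CPM in KO 1 and at 29.3 CPM in KO 2, so that KO 1 was below and KO 2 within the controls. The log2 change was -0.36 (95% interval -1.0 to 0.27, adjusted p 0.669), and without KO 1 it was 0.06. Slco1c1 is also made by the choroid plexus, the epithelium that secretes cerebrospinal fluid, and a varying amount of it was in the cerebellum pieces. The summed CPM of 11 choroid plexus genes were 2951, 1213 and 3483 in controls, 69.2 in KO 1 and 3000 in KO 2. Of these genes 9 had counts in every library, and the carrier Slc4a5 and the transporter Slco1a5 were at 0 in at least 1. The libraries with the lowest sums, KO 1 and control 2, were also those with the lowest Slco1c1. The part of choroid plexus in the Slco1c1 values was not tested. Mfsd2a was at 17.2 CPM in KO 1, where the sum was 69.2, and at 14.1 CPM in KO 2, where it was 3000.

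**Figure D2:**
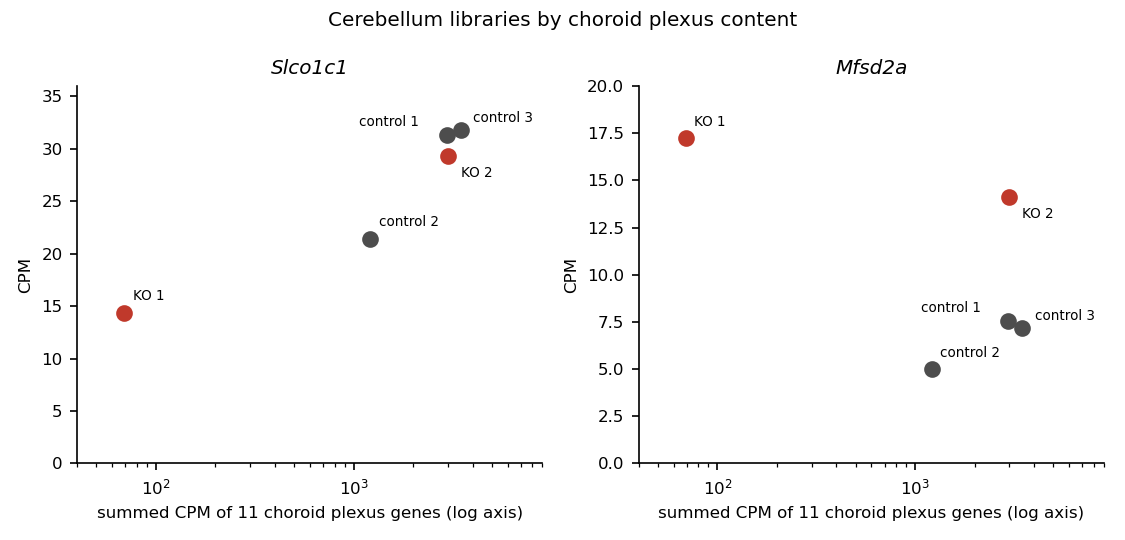
CPM of Slco1c1 and Mfsd2a (linear axes from 0) in the 5 cerebellum libraries against the summed CPM of 11 choroid plexus genes (log axis), grey for control and red for KO. Slco1c1 was at 14.4 CPM where the sum was 69.2 and at 29.3 to 31.8 CPM where it was 2951 or more, and Mfsd2a was at 17.2 and 14.1 CPM in KO 1 and KO 2.

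None of the 5 general endothelial genes passed the test in KO cerebella, and none had an unadjusted p under 0.05, beside 13.4% of all genes. Cldn5, the main claudin of barrier tight junctions (ENSMUSG00000041378.2, chromosome 16, 18776847 to 18778262, plus strand), was at 14.0, 15 and 15.1 CPM in controls and at 15.4 and 20.4 CPM in KO cerebella. Its groups did not overlap, by a narrow margin at KO 1, and the log2 change of 0.28 did not pass (SE 0.142, adjusted p 0.469). Pecam1, an adhesion molecule of endothelial contacts (ENSMUSG00000020717.19, chromosome 11, 106654217 to 106750628, minus strand), was at 11.4, 10.4 and 14.9 CPM in controls and at 14.4 and 12.2 CPM in KO cerebella. Cdh5, the cadherin of endothelial adherens junctions (ENSMUSG00000031871.9, chromosome 8, 104101625 to 104144511, plus strand), was at 7.28, 6.01 and 6.35 CPM in controls and at 5.98 and 8.40 CPM in KO cerebella. Both genes overlapped between the groups, with log2 changes of 0.11 (SE 0.176) for Pecam1 and 0.13 (SE 0.189) for Cdh5.

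The receptors did not pass either. Flt1, a receptor of vascular endothelial growth factor (ENSMUSG00000029648.13, chromosome 5, 147561604 to 147726011, minus strand), was at 25.6, 30.7 and 28.3 CPM in controls and at 28.1 and 36.5 CPM in KO cerebella. Tek, the receptor of the angiopoietins (ENSMUSG00000006386.15, chromosome 4, 94739289 to 94874976, plus strand), was at 8.03, 10.9 and 8.54 CPM in controls and at 7.90 and 9.60 CPM in KO cerebella. The log2 changes were 0.19 (SE 0.131) for Flt1 and -0.07 (SE 0.180) for Tek, and the groups overlapped for both. For the 9 genes other than Mfsd2a the log2 changes ran from -0.36 to 0.40 with a median of 0.13 and adjusted p of 0.250 or more, beside a median of 0.00 over all 19447 genes. Of the 10 genes, 3 had both KO libraries above all controls (Mfsd2a, Slc2a1 and Cldn5), beside 15.4% of all tested genes.

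In KO cortices all 10 genes had a higher mean than in controls, and none passed the test. The cortex comparison called 0 of 19202 genes with edgeR, so that Snx14 itself did not pass (log2 change -1.36, adjusted p 0.754). DESeq2 gave Snx14 an adjusted p of 2.11e-06. The lack of a call in cortex with edgeR therefore does not show that a gene was unchanged. At an unadjusted p under 0.05 there were 1139 genes (5.93%), among them 3 of the 10, and DESeq2 called 49 genes, none of them among the 10. Mfsd2a was at 14.6, 8.05 and 16.0 CPM in control cortices and at 28.7 and 23.0 CPM in KO cortices. Both KO libraries were again above all 3 controls. Controls averaged 12.9 ± 4.23 CPM (SD, n = 3) and KO mice 25.9 ± 4.04 CPM (SD, n = 2). The log2 change was 1.03 (SE 0.269, 95% interval 0.40 to 1.65, unadjusted p 0.00555 in edgeR). The adjusted p was 0.754, and DESeq2 gave 0.0669. Without control 2, the lowest library, the log2 change was 0.78 and passed (adjusted p 0.0157).

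The other transporters were as follows in cortex. Slc2a1 was at 78.1, 51.4 and 60.9 CPM in controls and at 99.6 and 83.4 CPM in KO cortices, which did not overlap, with a log2 change of 0.54 (SE 0.172, adjusted p 0.768). Slco1c1 was at 40.6, 31.2 and 27.5 CPM in controls and at 41.0 and 42.9 CPM in KO cortices, with control 1 just under KO 1, and its log2 change was 0.36 (SE 0.162, adjusted p 0.861). Choroid plexus genes were low in every cortex library, with summed CPM of 14.1 to 33.9. Abcb1a was at 24.4, 10.6 and 12.5 CPM in controls and at 26.2 and 23.5 CPM in KO cortices, a log2 change of 0.67 (SE 0.322, adjusted p 0.871). Slco1a4 was at 32.5, 22.6 and 14.6 CPM in controls and at 34.3 and 30.8 CPM in KO cortices, a log2 change of 0.50 (SE 0.283, adjusted p 0.886). For both of these control 1 lay between the KO libraries while controls 2 and 3 lay lower.

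Control 1 stood out in the same way for the general endothelial genes of the cortex. Flt1 was at 41.4 CPM in control 1, at 19.9 and 18.3 CPM in controls 2 and 3, and at 42.8 and 40.1 CPM in KO cortices. Pecam1 was at 12.5 CPM in control 1, at 6.63 and 7.12 CPM in controls 2 and 3, and at 15 and 12.8 CPM in KO cortices. Tek was at 9.22 CPM in control 1, at 5.27 and 5.40 CPM in controls 2 and 3, and at 9.72 and 9.06 CPM in KO cortices. In all 3 genes the Het control 1 was near the KO libraries, and the other Het control was near the WT control. Cdh5 and Cldn5 were highest in control 1 itself. Cdh5 stood at 8.80, 3.29 and 4.29 CPM in controls and at 7.45 and 6.55 CPM in KO cortices. Cldn5 stood at 21.6, 11.9 and 7.55 CPM in controls and at 17.8 and 19.98 CPM in KO cortices.

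The log2 changes in cortex were 0.68 (SE 0.275) for Pecam1, 0.66 (SE 0.320) for Flt1, 0.52 (SE 0.260) for Tek, 0.48 (SE 0.369) for Cldn5 and 0.38 (SE 0.380) for Cdh5, with adjusted p of 0.823 or more. The median over the 10 genes was 0.53, beside 0.00 over all genes tested and 50.2% of them above 0. Without control 1 it was 0.93, and without control 2 or control 3 it was 0.43 and 0.42, so a single control library moved it by over 1.5 times. The groups did not overlap, with KO higher, for 4 of the 10 genes (Mfsd2a, Slc2a1, Pecam1 and Slco1c1), beside 10.5% of all genes tested.

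**Figure D3:**
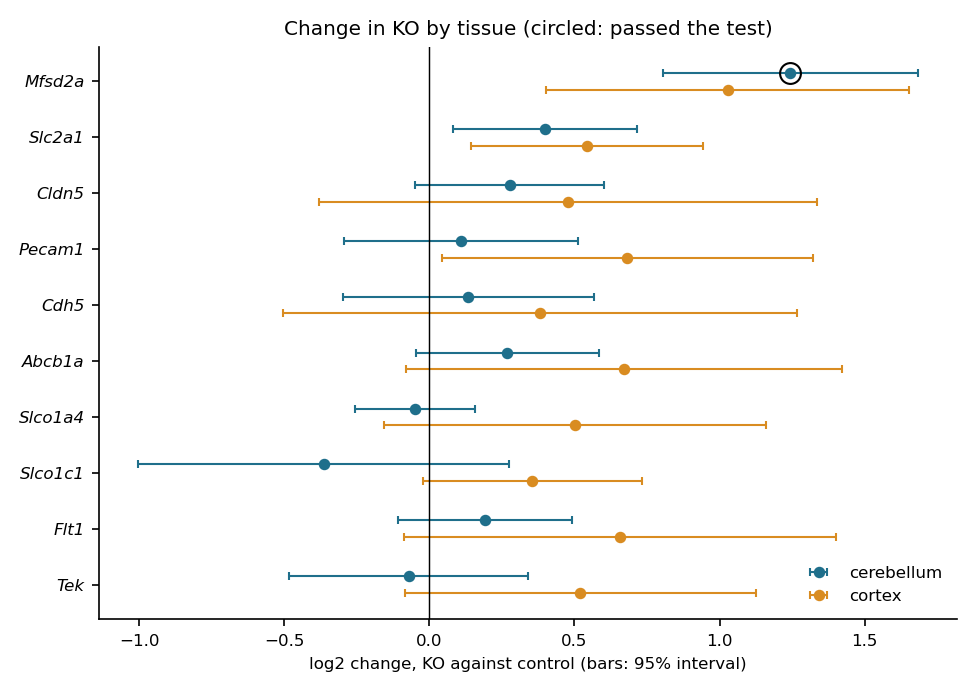
Log2 change of KO against control (x axis) for the 10 genes, with 95% intervals from edgeR, in cerebellum (blue) and cortex (orange). The circled point is Mfsd2a in cerebellum (1.24), the only one that passed the test; in cortex all 10 points lie above 0, between 0.36 and 1.03, with wider intervals for most genes.

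Whether the KO change differed between the tissues was tested as the difference of both changes in 1 fit of all 10 libraries. None of the 10 genes passed in edgeR, beside 21 of 20614 genes (0.102%). None had an unadjusted p under 0.05, beside 8.28% of all genes, and DESeq2 called none. For Mfsd2a the change was larger in cerebellum by 0.24 on the log2 scale, with a 95% interval of -0.60 to 1.07 (adjusted p 0.948). These mice do not settle whether the difference lies above or below 0. With the animal as a replicate block, since each mouse gave both tissues, the difference was 0.22 (adjusted p 0.749). The other 9 genes had the smaller change in cerebellum, by 0.12 for Slc2a1 up to 0.70 for Slco1c1. The difference for Slco1c1 did not pass (-0.70, 95% interval -1.54 to 0.14, adjusted p 0.686).

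Control mice differed between the tissues for Mfsd2a, which was lower in cerebellum by 0.96 on the log2 scale (a difference of -0.96, SE 0.249, adjusted p 0.00672). All 3 control cerebella, at 4.99 to 7.56 CPM, were below all 3 control cortices, at 8.05 to 16.0 CPM, as were 30.2% of all genes. It was the only 1 of the 10 called in this comparison, in which 40.9% of all genes were called. With the animal as a replicate block Pecam1 was called as well, higher in cerebellum by 0.51 (adjusted p 0.0389). Without cortex control 1 there were 8 of the 10 genes called. The 40.9% belongs to the main fit, and the share of all genes called in these alternative fits is not given here. By mean CPM the order of the groups for Mfsd2a was cortex KO (25.9), cerebellum KO (15.7), cortex control (12.9) and cerebellum control (6.57). The cerebellum KO libraries, at 14.1 and 17.2 CPM, overlapped the control cortices, so these neighbours did not differ beyond their spread, while the other neighbouring groups in the order did not overlap.

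Levels of different genes were compared per kilobase of exon (RPKM, the CPM divided by the exonic length in kilobases). In control cerebella Slc2a1 had the highest mean level (21.2 RPKM), followed by Cldn5 (10.4 RPKM), and Cdh5 had the lowest (1.56 RPKM). Mfsd2a ranked 6 of the 10 in control cerebella at 2.92 RPKM and 3 in KO cerebella at 6.96 RPKM. In cortex Mfsd2a ranked 4 in controls at 5.72 RPKM and 3 in KO mice at 11.5 RPKM, below Slc2a1 and Cldn5 in each KO group.

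To set Mfsd2a against the amount of vessel RNA in each library, its log2(CPM + 1) was compared with the mean log2(CPM + 1) of Cldn5, Pecam1, Cdh5, Flt1 and Tek, with no test. In cerebellum the mean of the 5 genes was 3.76 ± 0.05 (SD, n = 3) in controls and 3.88 ± 0.17 (SD, n = 2) in KO mice. Mfsd2a lay below this mean by -0.60, -1.19 and -0.77 in controls, and stood at 0.43 above it in KO 1 and at -0.08 in KO 2. Both KO libraries were higher than every control on this measure, by 1.03 between the means. Leaving out 1 library at a time gave differences of 0.77 to 1.28.

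In cortex the mean of the 5 genes itself differed, at 3.44 ± 0.54 (SD, n = 3) in controls and 4.0 ± 0.06 (SD, n = 2) in KO mice. Mfsd2a against this mean was at -0.10, 0.03 and 0.99 in controls and at 0.86 and 0.63 in KO cortices. WT control 3 had the highest value of all and the groups overlapped. The difference of the means was 0.44, within the pooled SD of 0.49, and 0.23 without control 1 and 0.78 without control 3. With the 20 genes of the general endothelial list in place of the 5 it was 0.54, with a pooled SD of 0.45. WT control 3 again had the highest value with these 20 genes, so the groups overlapped here too. In cortex control 1 the 5 genes summed to 93.5 CPM, as in KO 1 and KO 2 (92.7 and 88.5 CPM), and Mfsd2a was at 14.6 CPM there and at 28.7 and 23.0 CPM in KO 1 and KO 2.

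**Figure D4:**
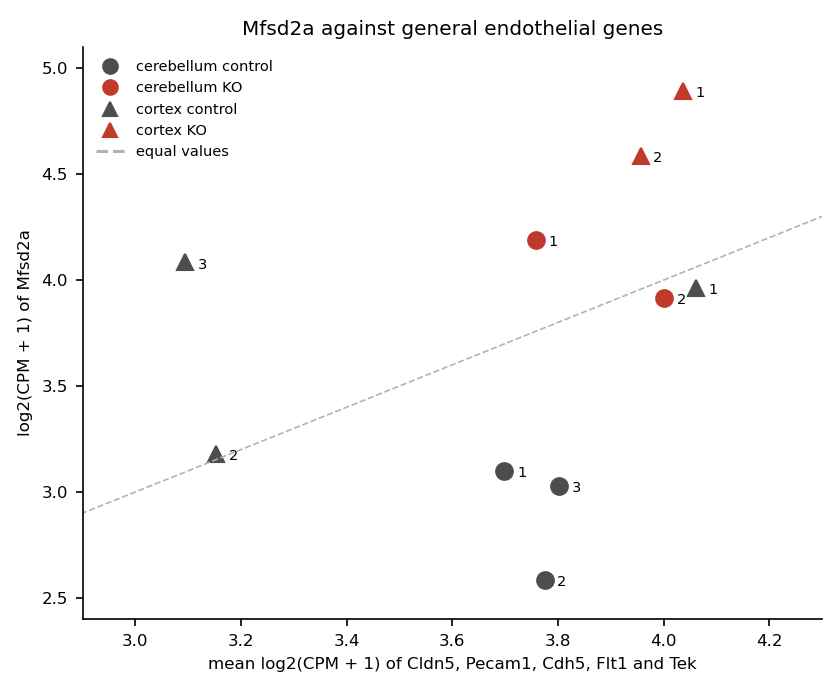
Log2(CPM + 1) of Mfsd2a (y axis) against the mean log2(CPM + 1) of 5 general endothelial genes (x axis) in the 10 libraries, circles for cerebellum, triangles for cortex, grey for control, red for KO, with the replicate number beside each point and a line of equal values. The cerebellum libraries share nearly the same x value while the KO points lie higher, and in cortex control 1 lies beside the KO libraries on the x axis and below them on the y axis.

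Across the 10 libraries, with the mean of each tissue removed, the 5 general endothelial genes varied together, with Pearson r between pairs of 0.73 to 0.94 (median 0.81, 10 pairs). Mfsd2a followed them less closely, with r of 0.33 for Tek up to 0.66 for Pecam1 (median 0.51). So did the transporter Slco1c1, with r of 0.385 for Pecam1 up to 0.58 for Cdh5. Slc2a1 had r of 0.60 to 0.89 with them, and Abcb1a and Slco1a4 of 0.71 or more. Among the transporters r with Mfsd2a was 0.84 for Slc2a1, 0.71 for Abcb1a, 0.29 for Slco1a4 and -0.05 for Slco1c1. These values describe 10 libraries from 5 mice, in which the KO libraries are shared by every gene, and they carry no p. The 5 genes most like Mfsd2a by this measure, out of 16973 ranked, were Htra1 (r 0.98), Cabp1 (0.98), Gjb6 (0.97), 9530026P05Rik (0.97) and Smox (0.97). The rise of Mfsd2a in KO libraries is part of the pattern that chose them, so their log2 changes are given without a test. In cerebellum these were 0.46 for Htra1, 0.23 for Cabp1, 0.69 for Gjb6, 0.56 for 9530026P05Rik and 0.46 for Smox, and in cortex they ran from 0.22 to 0.79.

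The vascular genes around the 10 were described by lists. Of 20 general endothelial genes, which include the 5 above, 12 had a higher and 8 a lower mean in KO cerebella (median 0.08, and -0.10 without KO 2), with 0 called in edgeR. In cortex 19 were higher and 1 lower with a median of 0.47, again with 0 called, and the median was 0.85 without control 1 and 0.25 without control 3. The summed CPM of this list were 184 to 215 in control cerebella, 214 and 221 in KO cerebella, 323, 200 and 214 in control cortices, and 353 and 322 in KO cortices. All 20 genes had counts in every library. The smallest unadjusted p among them were those of Eng, a co-receptor of the TGF-beta family, and Cldn5 in cerebellum, and of Erg, an endothelial transcription factor, and Cd34 in cortex.

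Of 18 barrier transporters 10 were higher and 8 lower in KO cerebella (median 0.04), and Mfsd2a was the only call. Tfrc, the transferrin receptor, had the next smallest p, with a log2 change of -0.28 (adjusted p 0.0989). In cortex 14 of the 17 tested had a higher mean (median 0.24) and 0 were called. The 10 tight junction genes had medians of 0.09 and 0.18 in cerebellum and cortex, with 0 called in both. Of 9 genes of caveolae and transcytosis, the vesicle route that Mfsd2a holds down, only Mfsd2a was called in cerebellum. Ehd4, an endocytic ATPase, had the next smallest p, with a log2 change of 0.45 (adjusted p 0.180). The median of the other 8 was 0.16 in cerebellum and 0.29 in cortex. These small medians depended on single libraries. In cerebellum that of the transporters was -0.0082 without control 2 and 0.17 without KO 1, that of the tight junction genes -0.014 without KO 2 and 0.20 without KO 1, and that of all 9 caveolae genes 0.056 without KO 2 and 0.39 without KO 1. In cortex the transporter median was 0.12 without control 2 and 0.40 without control 1.

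Genes of Wnt signalling to the barrier (18 genes) had a median of 0.13 in cerebellum and 0.21 in cortex, and those of VEGF and angiopoietin signalling (15 tested of 16) of 0.14 and 0.18, with 0 called in either list and tissue. Without KO 2 the cerebellum medians were 0.028 and 0.032, and without KO 1 they were 0.21 and 0.37. Of 8 tested genes of endothelial activation 7 had a higher mean in KO cerebella, with a larger median of 0.55 (0.44 without KO 1). In cortex the median was 0.01 over the 6 tested, with 0 called. Lcn2, a secreted acute phase protein also made by astrocytes, was the only call of this list in cerebellum (log2 change 2.53, SE 0.463, adjusted p 0.0306). Lcn2 stood at 2.47 and 1.70 CPM in KO cerebella against 0.18 to 0.61 CPM in controls. The leukocyte adhesion genes Sele and Selp were at 0 in at least 1 library and were not tested.

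In the list of 22 genes of DHA and lysolipid handling, of which 21 were tested in cerebellum, Mfsd2a was the only call. The list median was 0.07, and 0.05 in cortex. Acsl3, which activates long-chain fatty acids, and Fads2, a desaturase of DHA synthesis, passed the adjusted p in cerebellum with changes of 0.45 and 0.39 (adjusted p 0.0166 and 0.0461), under the limit of 0.5. Lpcat4, which acylates lysolipids, and Spns2, a sphingosine-1-phosphate exporter, passed it in the other direction, at -0.39 and -0.41 (adjusted p 0.0424 and 0.0473). Fads2 and Spns2 were named after their values were seen. Acsl3 stood at 168 to 186 CPM in controls and at 248 and 230 CPM in KO cerebella, with no overlap.

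Among the close relatives of the 10 genes, Slc2a4, the insulin-responsive glucose transporter, rose in KO cerebella. It stood at 5.23, 5.50 and 5.54 CPM in controls and at 10.4 and 11 CPM in KO cerebella, which did not overlap, and the log2 change was 0.97 (SE 0.139, adjusted p 0.0107). Mfsd2b, a relative of Mfsd2a that exports sphingosine-1-phosphate from blood cells, was at 1.77 to 2.13 CPM in controls and at 3.51 and 2.4 CPM in KO cerebella, and did not pass (0.58, adjusted p 0.363).

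**Figure D5:**
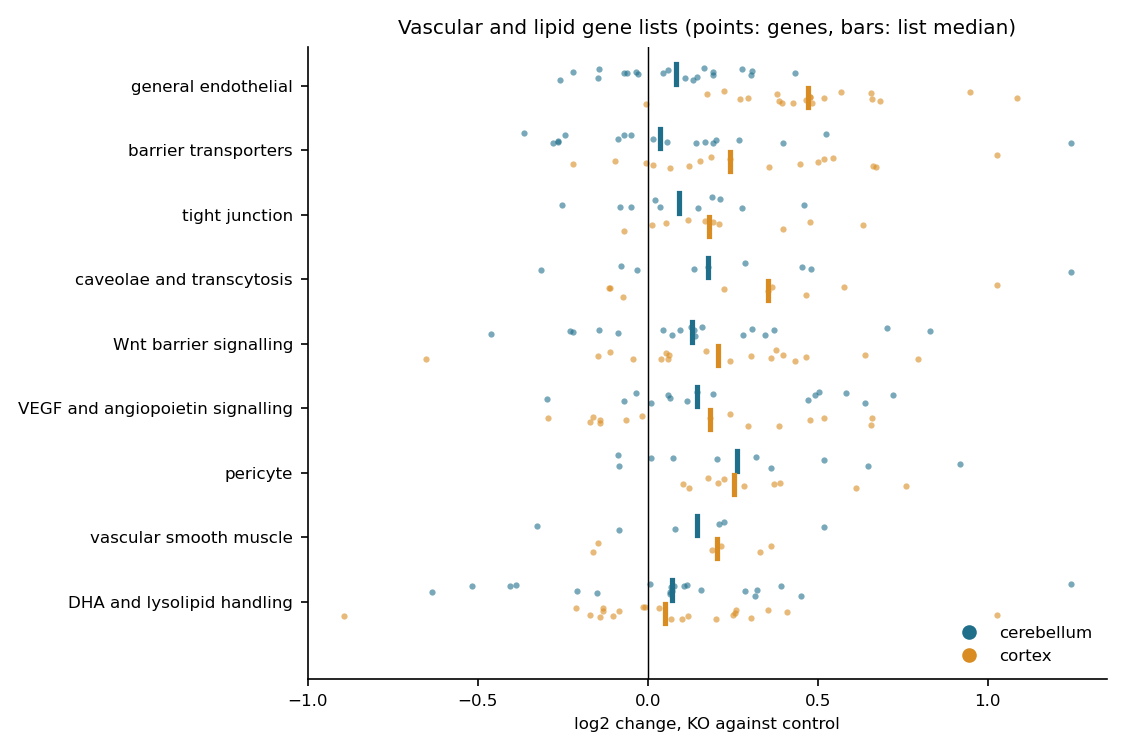
Log2 change of KO against control (x axis) for each tested gene (points) of 9 gene lists (rows), with the list median as a bar, cerebellum in blue and cortex in orange. General endothelial genes have a median of 0.08 in cerebellum and 0.47 in cortex, and the rightmost points of the transporter, caveolae and DHA lists are the same gene, Mfsd2a.

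Markers of other cell types moved with the KO libraries in cerebellum. Of 12 astrocyte genes 10 were higher and 5 were called, led by Gfap, the filament protein of reactive astrocytes (1.3), Gja1 (0.78), the water channel Aqp4 of astrocyte endfeet (0.69) and Gjb6. The summed CPM of these 12 genes were 7493 to 8163 in control and 9296 to 9635 in KO cerebella, and 4806 to 6495 in control and 6911 to 7342 in KO cortices. The KO libraries were highest and control 2 was lowest in both tissues, as they were for Mfsd2a. All 12 had counts in every library. Of 10 Purkinje cell genes 9 were called lower, with summed CPM of 9404 to 11061 in control and 4909 to 5061 in KO cerebella. Pericytes share the capillary wall with the endothelium. Of 10 pericyte genes 8 had a higher mean and 1, Vtn, was called (0.65, SE 0.117, adjusted p 0.0290), and all 10 had counts in every library. Their summed CPM were 144 to 153 in control and 180 and 205 in KO cerebella, and 145 to 183 in control and 190 and 198 in KO cortices. For the pericyte genes too, the KO libraries were highest and control 2 was lowest in both tissues. The order of the libraries is thus not particular to astrocyte genes, and control 2 also stood apart over all genes. In cortex all 10 pericyte genes had a higher mean (median 0.25) with 0 called.

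Of 10 genes of vascular and meningeal fibroblasts all had a higher mean in KO cerebella (median 0.62) and in KO cortices (median 0.57), with 0 called. The medians were 0.34 without KO 2 and 0.93 without control 1 in cerebellum, and 0.16 without control 2 and 1.14 without control 1 in cortex. Their summed CPM overlapped between the groups, at 127 to 308 in control and 255 and 384 in KO cerebella, and only Slc47a1 was at 0 in a library. The 7 vascular smooth muscle genes had medians of 0.14 and 0.20 over the 6 tested, with 0 called. In cerebellum the median was -0.27 without KO 2 and 0.37 without KO 1, and in cortex 0.0049 without control 2 and 0.33 without control 1. Of 11 genes of microglia and macrophages 10 were higher in cerebellum and Lyz2 was called (1.37), with summed CPM of 159 to 173 in control and 219 and 235 in KO cerebella. In cortex their median was 0.00.

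Genes induced by glucocorticoids, hormones that act on many brain cell types, had a higher mean in KO mice for 14 of 14 genes in both tissues (median 0.59 in cerebellum and 0.45 in cortex). Without KO 1 the cerebellum median was 0.34, and without KO 2 it was 0.84. Their summed CPM were 433 to 504 in control and 782 and 634 in KO cerebella, and 475 to 483 in control and 733 and 605 in KO cortices. Sgk1 (0.72, adjusted p 0.00196) and Plin4 (2.24, adjusted p 0.0455) were called in cerebellum and none in cortex. The part that astrocytes, pericytes, other cells or these genes have in the Mfsd2a values was not tested.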

How the data were processed

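Each library has a deposited table of raw counts, neither normalized nor pooled. After trimming, read pairs had been aligned by the authors with STAR (build GRCm38) and counted over exons by featureCounts (Subread 2.0.1), as headers and methods state, with no use of strand and without pairs that mapped to several places. A pair over several genes was counted for each. Another gene overlapped 2.99% of the exonic bases of Slc2a1, 10.1% of those of Abcb1a and 0% of those of the other 8 genes.

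Of 81881 entries, 55536 mouse genes were used and named by GENCODE M21. The other 26345 held 0.160% to 0.926% of a library's counts. Library totals ranged from 16088310 to 22975355, and the biological coefficient of variation was 0.121 in cerebellum and 0.141 in cortex.

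Groups came from the labels, which name both Het and WT mice as controls, and these were pooled. edgeR 4.0.16 in R 4.3.3 (quasi-likelihood F test, filterByExpr with a count minimum of 10, TMM scaling, Benjamini-Hochberg over all tested genes) compared KO and control in each tissue, and 1 fit of 10 libraries gave the other contrasts. The call limits are the study's. Its tool, DESeq2, was run as an alternative (1.42.0). Each test was checked on simulated counts with known changes. In these every gene had the same biological coefficient of variation and no library stood apart. The check does not show how the tests behave where libraries stand apart, as they do here.

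Same-animal libraries of both tissues deviated together (r 0.26 to 0.51), and the labels give them the same animal number. The other alternatives were RLE size factors, no filter, a replicate block and leaving out each library. The genes named are the 10, Snx14, up to 4 called genes of each list or the 2 with the smallest p, close relatives and the 5 genes most like Mfsd2a. Members and lists were chosen with earlier results of these data known.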

Additional observations from a re-analysis of the deposited data

How the results depend on the processing

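Of 460 alternative values for the log2 changes of the 10 genes in the 4 comparisons, 16 changed sign, each when a library was left out and each for a gene that had not passed. With 1 library left out, the cerebellum change ran from -0.0064 to 0.28 for Pecam1, -0.14 to 0.36 for Cdh5, -0.98 to 0.056 for Slco1c1, -0.017 to 0.37 for Flt1 and -0.23 to 0.078 for Tek. The difference of the KO effects ran from -0.33 to 0.053 for Slc2a1, -0.69 to 0.088 for Cldn5, -0.78 to 0.025 for Cdh5 and -0.51 to 0.048 for Snx14. Control cerebellum against control cortex ran from -0.20 to 0.58 for Cldn5, -0.017 to 0.78 for Cdh5 and -0.14 to 0.54 for Flt1. Mfsd2a ran from 1.08 to 1.38 in cerebellum and from 0.78 to 1.21 in cortex.

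Leaving out 1 library gave 133 to 400 called genes in cerebellum (302 with all), 0 to 98 in cortex (0 with all) and 3 to 117 for the difference (21 with all). Of the 10 genes it gave 0 to 1 called in cerebellum, where Slc2a1 took the place of Mfsd2a without control 3, and 0 to 1 in cortex. Between the control tissues it gave 1 to 8, the most without cortex control 1, and the share of all genes there is not given here. DESeq2 called 49 genes in cortex and 219 for the difference. With no filter on low counts 842 of 35258 genes were called in cerebellum, 380 of 34776 in cortex and 599 of 38501 for the difference. Of the 10 genes, 5 were called in cortex and 1 for the difference, with Mfsd2a passing in cortex at 1.03. The p-values of that fit are not reliable, since its prior degrees of freedom were infinite.

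With the mouse number as a replicate block, 181 genes were called in cerebellum (2 of the 10) and 3 in cortex. Same-numbered libraries of different mice correlated at -0.02 to 0.19, so they share a number only. With the animal as a replicate block, which pairs the tissues, 128 genes passed for the difference, and 2 of the 10 were called between the control tissues. It changed no other call among the 10 genes. Groups of 2 and 3 mice limit every comparison.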
